A study of Drosophila melanogaster with 2 samples.

Results

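A total of 527 Wdn peaks lay between 2 diverging gene starts in Drosophila melanogaster embryos. They were 16.2% (95% exact binomial interval 15.0 to 17.5%) of the 3248 listed peaks on the X chromosome, the arms of chromosomes 2 and 3, and chromosome 4. A peak counted when its summit had an annotated minus-strand transcript start at or to the left within 500 bp and a plus-strand start at or to the right within 500 bp, so that the summit was upstream of both genes. The list was the series' less stringent one from both replicates together, with 3254 peaks in all. The members fell into 521 distinct intervals, of which 6 held 2 summits each, and they were flanked by 1073 genes. The chromatin came from whole embryos 0 to 24 h old, of flies carrying a transgene for Wdn fused to eGFP, and the fusion was recovered with a GFP antibody. There was 1 group of 2 biological replicates, both from the same fly line per the labels, and no control library was analysed here. The sequence that drives the transgene and the expression of the fusion by cell type are not given in the sources used here, so a peak is a value over all cells of the embryo. The read depth behind the peaks is unknown, because the files give signal and rank and no read counts. All intervals given below therefore cover the counting of peaks, genes or gene pairs only.

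Wdn is the product of wings down and belongs to the C2H2 zinc finger proteins, in which each finger can contact a few bases of DNA. In the compact fly genome many genes stand back to back, with their starts facing away from each other and one short upstream region between them. Such a region can hold the promoters of both genes, and in flies many of the genes arranged in this way are expressed in most cells. A peak there is upstream of 2 genes at once, and chromatin immunoprecipitation does not tell to which of them it belongs.

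The sequence within 50 bp of the summit is shown for the 6 peaks of highest signal, because A and T content is a sequence feature described below. Each is 101 bases of the plus strand of the dm6 build, read from the RefSeq genome, and capitals mark runs of at least 8 A or T bases. They are chr3R:29736796-29736896 between CG7601 and CIA30, chr3R:15229482-15229582 between Art3 and mRpS10, chr3R:27636116-27636216 between CG5611 and Mtl, chr2L:13835413-13835513 between mRpS23 and CenG1A, chr3L:5139446-5139546 between Tcs5 and CHMP2B, and chr2L:8376847-8376947 between CG13390 and CG17294. None of these windows touched an annotated UTR.
CG7601 and CIA30: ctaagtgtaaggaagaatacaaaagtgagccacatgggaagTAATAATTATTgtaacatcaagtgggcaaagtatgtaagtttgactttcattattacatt
Art3 and mRpS10: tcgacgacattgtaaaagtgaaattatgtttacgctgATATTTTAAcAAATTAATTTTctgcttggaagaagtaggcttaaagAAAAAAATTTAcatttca
CG5611 and Mtl: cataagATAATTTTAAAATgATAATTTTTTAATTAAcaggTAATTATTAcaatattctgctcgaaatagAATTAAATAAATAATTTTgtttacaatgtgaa
mRpS23 and CenG1A: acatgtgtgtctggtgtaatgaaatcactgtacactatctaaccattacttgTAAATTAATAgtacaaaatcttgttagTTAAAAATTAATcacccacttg
Tcs5 and CHMP2B: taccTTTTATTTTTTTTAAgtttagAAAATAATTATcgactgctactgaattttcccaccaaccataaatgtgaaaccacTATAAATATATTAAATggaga
CG13390 and CG17294: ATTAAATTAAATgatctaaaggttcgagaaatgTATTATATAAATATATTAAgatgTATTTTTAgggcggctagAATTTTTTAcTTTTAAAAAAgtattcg
The capitals cover 11, 31, 56, 22, 42 and 58 of the 101 bases in this order, so each of the 6 held at least 1 such run. No count of such runs at other summits is given here, so the runs are not shown to be particular to these peaks. The share of A and T over the whole window was between 68.3% and 83.2%.

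A pair of short words is shown in the same way, each in 2 members, with capitals for the word on either strand. CACAGTGG is a word from an earlier analysis of these peaks, and TATCGATA is the consensus bound by the promoter proteins Dref and BEAF-32. The 4 peaks were chosen after their values were seen, as the strongest with the word whose window lay outside UTRs. CACAGTGG appears in chr3R:15209080-15209180 between Spn88Eb and Mau2 (as its reverse complement) and in chr3R:20557704-20557804 between DPCoAC and CG5180. TATCGATA appears in chr3R:18188963-18189063 between CG12321 and MED17 and in chr3R:11216300-11216400 between RpS25 and CG4820.
Spn88Eb and Mau2: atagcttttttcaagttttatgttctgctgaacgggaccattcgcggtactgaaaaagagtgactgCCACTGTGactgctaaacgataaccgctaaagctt
DPCoAC and CG5180: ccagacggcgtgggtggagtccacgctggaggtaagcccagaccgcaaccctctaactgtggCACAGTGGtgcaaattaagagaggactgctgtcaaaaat
CG12321 and MED17: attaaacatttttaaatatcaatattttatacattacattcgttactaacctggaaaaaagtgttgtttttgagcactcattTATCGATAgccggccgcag
RpS25 and CG4820: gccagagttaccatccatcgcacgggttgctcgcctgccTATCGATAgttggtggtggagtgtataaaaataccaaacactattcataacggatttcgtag
The signal at these 4 peaks was 120, 85.6, 134 and 122 in this order, all far below the 6 strongest.

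The highest member lay between CG7601 and CIA30, which encodes an assembly factor of respiratory complex I. Its deposited signal, a value of the authors' peak caller whose scale is not stated, was 937 in the list from both replicates, 398 in replicate 1 and 541 in replicate 2. Art3, a protein arginine methyltransferase, and mRpS10, a protein of the small mitochondrial ribosomal subunit, shared the next peak, with a signal of 879 and replicate values of 422 and 459. CG5611 and Mtl flanked a peak of 876 with 380 in replicate 1 and 493 in replicate 2. All 3 were well above the median member in each replicate, 45.3 in replicate 1 and 52.3 in replicate 2.

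Mitochondrial ribosomal genes stood at 2 more of the 12 strongest peaks. The peak between mRpS23 and CenG1A, an Arf GTPase-activating protein, had a signal of 858, with 399 in replicate 1 and 454 in replicate 2. The peak between mRpL23 and CG9004 had 626, with 290 and 340 in replicates 1 and 2. The others served several cell functions. Tcs5 and CHMP2B, a subunit of the ESCRT-III membrane-remodelling complex, flanked a peak of 845 (383 in replicate 1 and 462 in replicate 2), and CG13390 and CG17294 flanked one of 745 (392 and 355). Atat, a tubulin acetyltransferase, and Shc, a signalling adaptor, shared a peak of 670 (249 and 421). Chro, a chromatin protein of polytene interbands, and Ssl1, a subunit of the transcription factor TFIIH, shared one of 669 (339 and 332). These 12 peaks were completed by CG1275 and Elp5, an Elongator subunit, at 594 (305 and 299), by fws, a subunit of the COG Golgi complex, and Lamtor3, of the Ragulator complex, at 508 (241 and 268), and by CG5757 and CG5098 at 502 (223 and 285). Replicate 2 was the higher at 9 of the 12 and replicate 1 at 3, and each of the 12 was in both replicates' own lists.

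The strongest members shared a geometry. In 8 of the 12 the starts stood 202 to 257 bp apart, and the nearer start was 86 to 124 bp from the summit. The peak between CG7601 and CIA30 was 101 bp from the nearer start and 119 bp from the other, that between Art3 and mRpS10 124 and 133 bp, and that between Atat and Shc 123 and 129 bp. The 4 wider intervals were those of Chro and Ssl1 (321 bp), CG5611 and Mtl (352 bp), mRpS23 and CenG1A (492 bp) and CG5757 and CG5098 (505 bp). In them, too, 1 start was 101 to 131 bp away, while the other was 210 to 391 bp away.

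Over all members the distances were of a like size. The interval between the starts had a median of 304 bp (quartiles 243 to 410), the nearer start was a median of 97 bp from the summit (64 to 128) and the farther one 209 bp (152 to 297). The interval itself limits both distances, since the nearer start can be no farther than the midpoint, so members are set beside unlisted ranked summits in intervals of the same class. The median nearer distance was 81 bp in the 109 members with intervals of 151 to 250 bp, 103 bp in 180 with 251 to 350 bp and 110 bp in 131 with 351 to 500 bp, against 56.5, 71 and 93 bp for the unlisted summits. The median farther distance was 143, 195 and 293 bp in members, against 149, 227.5 and 328 bp. Members thus stood farther from the nearer start and closer to the other one in each of these 3 classes. In the 39 members with intervals of up to 150 bp the nearer start was 21 bp away, against 22 bp for unlisted summits. In the 68 with intervals above 500 bp it was 162.5 bp away, against 205 bp. Members thus did not stand farther from the nearer start in the shortest and the widest intervals. The nearer start was 50 to 150 bp from the summit in 355 of 527 members (67.4%), against 478 of 1024 (46.7%) ranked summits between diverging starts that were not listed, and 329 of 961 (34.2%) listed peaks upstream of starts in one direction. The 34.2% is not a like measure, since members have upstream starts in both directions and the smaller of the 2 distances was taken. The nearer start was on the minus strand in 252 members and on the plus strand in 273, and 2 summits were equally far from both.

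**Figure D1:**
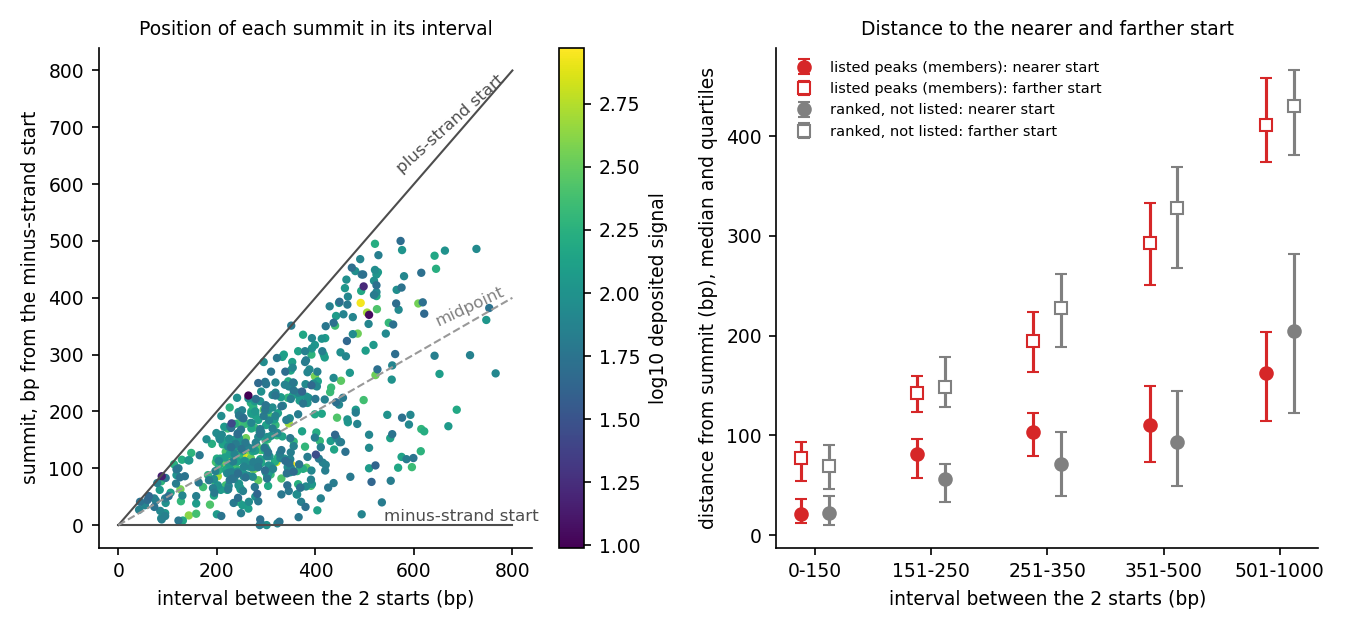
Left, each point is one of the 527 members, with the interval between its 2 starts on the x axis (bp), the distance of the summit from the minus-strand start on the y axis (bp) and log10 deposited signal as colour; lines mark the 2 starts and the midpoint. Right, the distance from summit to the nearer start (filled) and the farther start (open) in bp, as median and quartiles, for members (red) and for ranked peaks that were not listed (grey), by interval. In the 3 middle bins the nearer distance is 81, 103 and 110 bp for members, against 56.5, 71 and 93 bp for unlisted peaks.

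Between intervals of 151 and 350 bp the summit was most often central. With the interval cut into 3 equal parts, the summit lay in the central one in 63 of 109 members (57.8%) with intervals of 151 to 250 bp and in 98 of 180 (54.4%) with 251 to 350 bp, against 44 of 146 (30.1%) and 71 of 224 (31.7%) of the ranked summits in such intervals that were not listed. For intervals of 351 to 500 bp the shares were 36.6% of members and 25.4% of unlisted summits. In the shortest and the widest intervals the order turned. Up to 150 bp the shares were 11 of 35 members (31.4%) and 35 of 87 unlisted summits (40.2%), and above 500 bp they were 30.9% and 49.6%. In the widest class the 500 bp limit itself removes summits near either end, for members and unlisted summits alike. Over all intervals of at least 60 bp, 241 of 523 members (46.1%, 41.7 to 50.5%) and 355 of 1006 unlisted summits (35.3%, 32.3 to 38.3%) were in the central part. The 100 strongest members had 66 there. In the replicates' own lists the share was 48.7% in replicate 1 and 49.1% in replicate 2.

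The extremes of the range and of the rule follow. The shortest interval was 42 bp, between RanBP3 and Rpt5, an ATPase of the proteasome base, with a signal of 72.7, and the next was 44 bp, between mio and the overlapping CG15386 and CG42371, with 54.8. The longest was 766 bp, between CG6693 and the snoRNA gene snoRNA:Me18S-C1096 (80.1), and the next was 753 bp, between Glyat and Tg (54.2). The first of these long ones was also just inside the limit, with its farther start 499 bp away, as was the peak of the tRNA gene tRNA:Trp-CCA-2-6 and tud, a germ plasm gene, at 500 bp (49.0). Just outside lay the peak of CG10324 and CCT3, a chaperonin subunit, at 503 bp (69.5), and that of Mpc1, a mitochondrial pyruvate carrier, and CG42613 at 505 bp (80.4). The signals just inside and just outside thus lay in one range.

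In most members the flanking starts were direct neighbours. No further transcript start lay between the flanking starts in 422 of the 527. In the other 105 at least 1 did, and in 97 of these every further start belonged to one of the flanking genes. Leaving those 105 out gave a median interval of 299 bp and a nearer distance of 96 bp.

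Ranked summits between diverging starts entered the list more often than those of any other position. Of 130230 ranked summits on these chromosomes 2.49% were listed. Between diverging starts 527 of 1551 were (34.0%, 31.6 to 36.4%), against 961 of 9557 upstream of starts in one direction, whatever lay behind them (10.1%, 9.46 to 10.7%), 2.09% of those with starts only behind them and 1.42% of those with no start within 500 bp. The first of these was also the higher of the upstream classes in each replicate's own list: 340 of 1286 (26.4%) between diverging starts against 9.37% upstream of starts in one direction in replicate 1, and 393 of 1251 (31.4%) against 9.2% in replicate 2. The mean over the replicates was 28.9 ± 3.52% against 9.29 ± 0.121% (SD, n = 2 each), a gap larger than the spread between them. A summit between 2 starts is on average closer to a start, and among summits whose nearest upstream start was within 200 bp the shares were 36.5% of 1375 against 13.5% of 4448. The listed share is set by the authors' threshold. It was 22.2% against 5.89% at an IDR (irreproducible discovery rate, a measure of how well peak ranks match between data sets) of at most 0.001 instead of 0.01.

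Most annotated diverging pairs held no listed summit. Among 3113 neighbouring pairs of a minus-strand and a plus-strand start at most 1000 bp apart, 420 did (13.5%, 12.3 to 14.7%), 269 (8.64%) when only replicate 1's list was used and 319 (10.2%) with that of replicate 2. Members with a further start between their flanking starts lay in no such pair and were not counted in these shares. A summit counted only between the 2 starts, so closer pairs left less room for one. The share varied with the spacing. It was 4.03% of 496 pairs up to 100 bp apart, 7.02% of 470 at 101 to 200 bp, 26.3% (22.8 to 30.0%) of 609 at 201 to 300 bp, 24.0% of 433 at 301 to 400 bp, 18.2% of 307 at 401 to 500 bp and 5.89% of 798 at 501 to 1000 bp. Pairs 201 to 300 bp apart were the highest class in both replicates' own lists too, with 18.9% in replicate 1 and 21.0% in replicate 2, against 1.41% and 1.81% at up to 100 bp. Among pairs up to 100 bp apart 15.1% had a ranked summit at all, against 54.8% at 201 to 300 bp. Among pairs that had one the listed shares were 26.7, 24.3, 47.9, 40.3, 32.6 and 20.3% from the closest class to the widest. In the widest class the rule leaves out summits more than 500 bp from 1 of the starts.

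**Figure D2:**
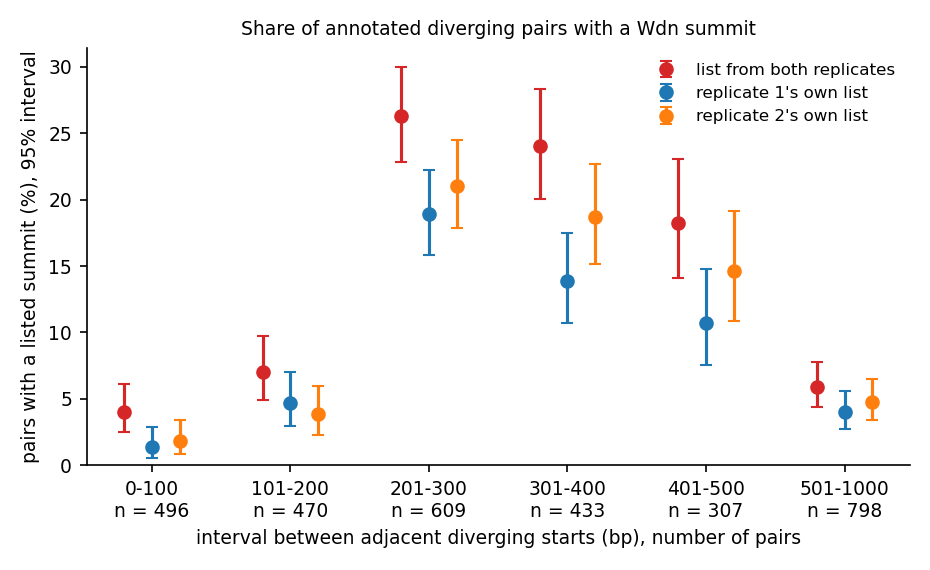
Percent of annotated diverging pairs with a listed summit (y axis) by the interval between the starts in bp (x axis, number of pairs below), with 95% exact binomial intervals, for the list from both replicates (red) and each replicate's own list (blue and orange). All 3 lists are highest at 201 to 300 bp, at 26.3, 18.9 and 21.0%.

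Nearly all members stood between protein-coding genes. Both sides were protein-coding in 500 of 527 (94.9%, 92.6 to 96.6%), 27 had a non-coding gene on 1 side, and none had one on both. By pair, 399 of 2500 coding-coding pairs (16.0%) held a member, against 21 of 507 pairs of a coding and a non-coding gene (4.14%) and 0 of 106 non-coding pairs (exact 95% interval up to 3.42%). In the 27 mixed members the summit was nearer to the coding start in 20 and to the non-coding one in 7, with a median signal of 80.1 and a median interval of 444 bp, against 93.0 and 302 bp in the coding pairs. The flanking genes were 1045 protein-coding genes, 18 ncRNA genes, 6 tRNA genes, 2 snoRNA genes and 2 pseudogenes. By chromosome arm, the share of pairs with a member was 16.8% on 3R, 16.2% on 3L, 13.2% on 2L, 11.3% on 2R and 9.11% on X, and 0 of the 23 pairs on chromosome 4.

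Member signals were spread widely around a moderate middle. The median was 91.6 (quartiles 67.9 to 145, range 9.77 to 937), against 82.7 (60.6 to 132, highest 1483) for peaks upstream of starts in one direction, 62.9 for peaks downstream of starts only and 71.4 for peaks with no start within 500 bp. In the own lists the medians were 58.7 and 60.8 in replicates 1 and 2 between diverging starts (59.8 ± 1.43, SD, n = 2), against 57.3 and 59.9 (58.6 ± 1.82) for one-direction peaks. The median between diverging starts was thus the higher in both own lists, but the difference of the means did not exceed the spread between replicates. The difference in the list from both replicates has no such spread to be set against. Members made up 118 of 499 (23.6%) of the 500 strongest peaks of the list, 19.2% of the next 1000 and 217 of 1749 (12.4%) of the remaining ones, counted on these chromosomes. One-direction peaks also fell along that order, with 39.7, 30.9 and 26.0%. There were 74 members above a signal of 200 and 4 under 20.

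The 4 weakest, named after their values were seen, were mostly second summits. The peaks of Pax and the overlapping Alp12 and CG13085 (16.5), of pbl and CG8281 (11.2) and of CG9586 and tai (9.77) each shared an interval with a stronger member 199 to 211 bp away, with signals of 237, 79.1 and 123. The fourth lay between slmb, an F-box protein of the ubiquitin system, and CG5793 (14.3). The other 3 intervals with 2 members were those of Acbp1 and Piezo, a mechanosensitive channel (164 and 45.7), of CG10584 and Polr3E, an RNA polymerase III subunit (101 and 61.8), and of Taf2, a TFIID subunit, and CalpB, a calpain (71.7 and 59.8). In all 6 the paired summits were 199 to 244 bp apart. A second summit can overlap the same replicate peak as the stronger one and then takes its replicate values. Both summits beside Pax thus had 113 in replicate 1 and 125 in replicate 2, and both between CG9586 and tai had 65.4 and 50.8. Such summits are each counted in the replicate comparisons below.

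About as many members were in both replicates' own lists as were not. Of the 527, 332 (63.0%) overlapped a peak of replicate 1's own list by at least 1 base, 373 (70.8%) one of replicate 2's, 279 (52.9%, 48.6 to 57.3%) both and 101 (19.2%) neither. For the 961 one-direction peaks the shares were 61.4% in replicate 1, 57.4% in replicate 2, 43.9% (40.7 to 47.1%) in both and 25.1% in neither. Peaks downstream of starts only were in both lists in 25.3%, and peaks with no start within 500 bp in 33.5%. The list named conservative held a peak overlapping 455 members (86.3%) and 80.0% of the one-direction peaks.

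Where both replicates had a ranked peak, in 517 members, the replicates gave like values with a tilt toward replicate 2. Replicate 2 was higher in 334 of 517 (64.6%), the median log2 ratio of replicate 1 to replicate 2 was -0.16, and 481 (93.0%) were within 2-fold. Upstream of starts in one direction replicate 2 was higher in 44.7% and the median log2 ratio was 0.09, and downstream of starts only it was higher in 25.1%. The scale of the signal may differ between the replicate lists, so the ratios are read only between classes. Over the members Spearman's rho was 0.763, against 0.656 over the one-direction peaks, as a description over peaks of the same 2 libraries. Among members in both own lists, replicate 1 exceeded replicate 2 most at Arp3, an actin-nucleating complex subunit, and msk, an importin (73.2 in replicate 1 and 35.4 in replicate 2), followed by CG2126 and faf, a deubiquitinase (70.3 and 37.2). It was lowest relative to replicate 2 at SNRPG, a spliceosomal Sm protein, and mthl1 (56.1 and 141), followed by alien, a COP9 signalosome subunit, and CG18661 (38.9 and 93.0).

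**Figure D3:**
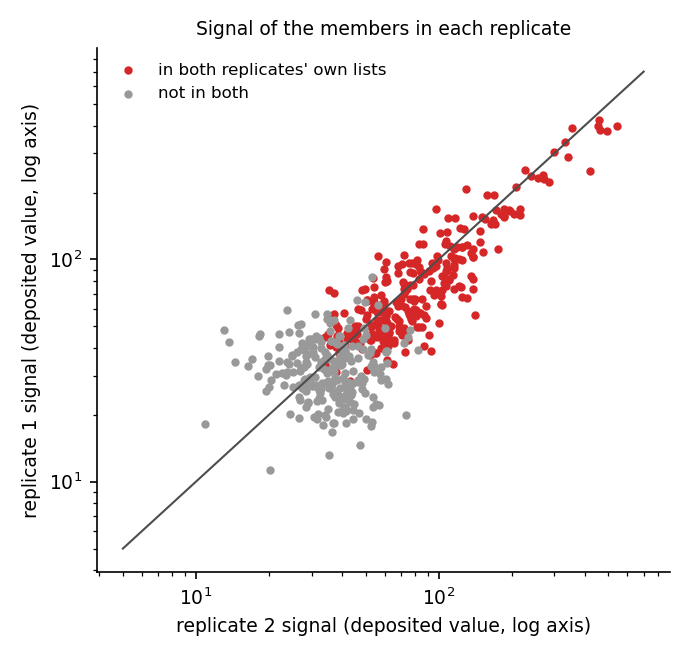
Deposited signal of each member in replicate 2 (x axis) and replicate 1 (y axis), both on log axes, for the 517 members with a ranked peak in both; red points are in both replicates' own lists, grey points are not, and the line marks equal values. More points lie below the line, where replicate 2 is higher (64.6%), and the 12 strongest members are at the upper right.

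The DNA at the summits was rich in A and T. Within 50 bp of the summit, A and T averaged 67.4 ± 9.55% in members (SD over 527 peaks), against 61.2 ± 9.96% at ranked summits between diverging starts that were not listed, 65.1% at the midpoints of pairs with no member, 62.9 ± 11.0% in listed one-direction peaks and 55.0% at unlisted one-direction summits. In the own lists it was 67.9% and 68.5% between diverging starts in replicates 1 and 2, against 64.4% and 65.7% upstream of starts in one direction. The midpoints above pool all spacings. Over all annotated pairs, with or without a member, midpoints averaged 56.1% at up to 100 bp and 60.7% at 101 to 200 bp. They averaged 70.7, 71.0 and 70.3% at 201 to 300, 301 to 400 and 401 to 500 bp, above the 67.4% over all members, and 67.1% at 501 to 1000 bp. The classes from 201 to 500 bp also most often held a member. Whether spacing and composition are linked was not tested. Members differed among themselves along their signal. In 4 classes of about equal size, from the weakest to the strongest, the mean was 64.2, 65.7, 67.8 and 71.8%, and Spearman's rho between signal and A and T content was 0.291 over the 527 members, which share their libraries. Signal was less tied to the interval length (rho -0.126).

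Along the DNA the richness was centred on the summit. In 21-bp windows the mean was 68.7% at the summit of members, and 52.1% and 52.3% at 400 bp to the left and right. At unlisted summits between diverging starts it was 60.8% at the summit, below the 62.1% and 62.7% at 100 bp to either side, and 53.0% and 53.6% at 400 bp. One-direction peaks had 64.2% at the summit and 55.8% and 57.1% at 400 bp. The listed share also followed the composition within each position: between diverging starts 18.0% of ranked summits with less than 50% A and T were listed and 52.3% of those with 70% or more, against 4.67% and 29.9% upstream of starts in one direction. In each of the 4 composition classes the share between diverging starts was the higher. Whether base composition has a part in which summits are listed was not tested.

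**Figure D4:**
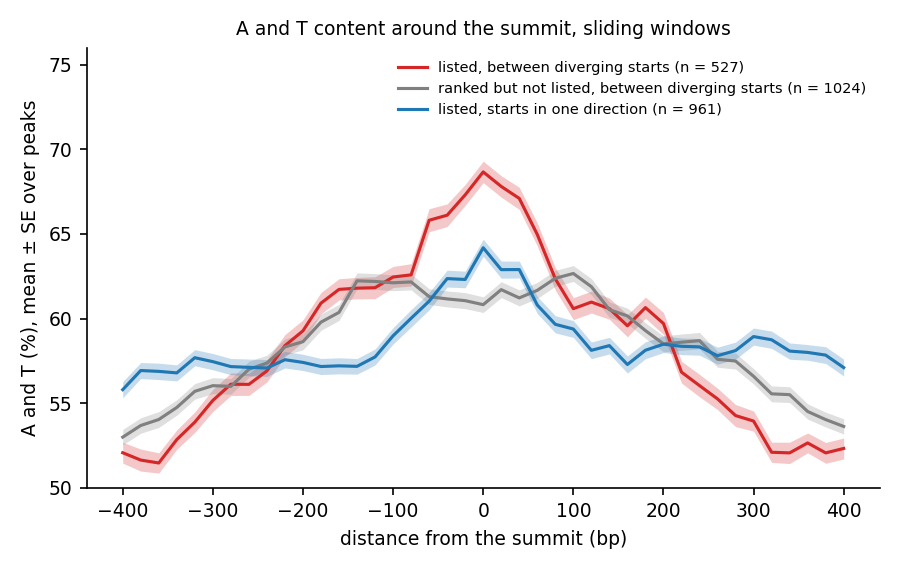
Mean percent of A and T in 21-bp windows (y axis, bands are ± SE over peaks) by distance from the summit in bp along the plus strand (x axis), for members (red), for ranked but unlisted summits between diverging starts (grey) and for listed peaks upstream of starts in one direction (blue). Members peak at 68.7% at the summit, where the unlisted summits have 60.8%.

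**Figure D5:**
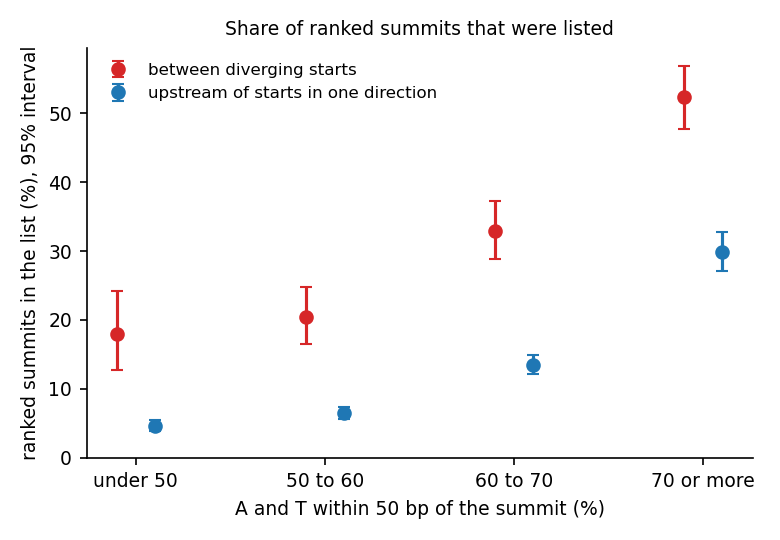
Percent of ranked summits that were listed (y axis, 95% exact binomial intervals) by percent of A and T within 50 bp (x axis), between diverging starts (red) and upstream of starts in one direction (blue). Red is above blue in each of the 4 classes, 18.0 against 4.67% in the lowest and 52.3 against 29.9% in the highest.

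The sequence within 50 bp of the summit was searched for 14 words, on either strand. The highest shares of members were those of TATAAA and TTAAAAAA, both made of A and T. TATAAA, the core of the TATA box, was in 140 of 527 members (26.6%, 22.8 to 30.6%), against 19.5% of one-direction peaks, 19.0% of unlisted summits between diverging starts and 21.3% of the midpoints of pairs with no member, and in 36.4% of the 132 strongest members. TTAAAAAA, a word from an earlier analysis of these peaks, was in 8.16% of members, against 6.35% of one-direction peaks, 3.81% of unlisted summits and 6.13% of midpoints. TATATTAA was in 5.12%, against 3.12, 1.86 and 2.67% in the same order, and AAAAATGT in 4.93%, against 3.75, 2.73 and 3.45%. These 4 words were also at a larger share of members than of the other 3 sets within 100 bp. TTAAAAAA, TATATTAA and AAAAATGT came from these same peaks, so their shares are not independent of their choice in either window. The words were counted with no correction for A and T content, which was higher in members than in the other 3 sets. The midpoints pool all spacings.

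CACAGTGG, shown above, was rare and stood at a larger share of members than of unlisted summits. It was in 8 members (1.52%, 0.658 to 2.97%), against 14 of 961 one-direction peaks (1.46%), 3 of 1024 unlisted summits between diverging starts (0.293%, 0.0605 to 0.854%) and 3 of 2693 midpoints (0.111%). The word came from these same peaks, as did ACAGTGGG, CACTGTGC and CACAGT below. The difference from unlisted summits is therefore not independent of its choice. None of the 8 was among the 132 strongest members, but within 100 bp the word was in 6 of the 132 strongest (4.55%) and 5 of the 132 weakest (3.79%). In that wider window it was in 3.04% of members, against 5.10% of one-direction peaks, 0.684% of unlisted summits and 0.594% of midpoints. ACAGTGGG, which overlaps it by 7 bases, was in 1.14% of members and 1.46% of one-direction peaks, and CACTGTGC was in 1.14% and 1.98%. The shorter CACAGT, which CACAGTGG contains, was in 5.31% of members and 6.45% of one-direction peaks.

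Among words of known fly promoter proteins, those of M1BP and GAGA factor had lower shares in members than at the unlisted summits of the same position, in both windows, while the order for TATCGATA turned with the window. TATCGATA was in 19 members (3.61%, 2.18 to 5.57%), against 69 of 1024 unlisted summits (6.74%, 5.28 to 8.45%), 4.64% of midpoints and 2.29% of one-direction peaks. Within 100 bp it was in 58 members (11.0%, 8.46 to 14.0%), against 96 of 1024 unlisted summits (9.38%, 7.66 to 11.3%), 7.58% of midpoints and 4.68% of one-direction peaks. GGTCACAC, the core of the motif of M1BP, was in 1.14% of members, against 3.52% of unlisted summits and 2.67% of midpoints, and within 100 bp in 3.98%, against 7.91% of unlisted summits. GAGAGA, the repeat bound by GAGA factor, was in 1.14% of members, against 3.42% of unlisted summits and 4.79% of one-direction peaks, and within 100 bp in 3.23%, against 7.03% and 13.2%. The E-box CAGCTG was in 4.55% of members and 6.45% of unlisted summits, and in 0.758% of the 132 strongest members and 11.4% of the 132 weakest. Within 100 bp it was in 14.0% of members and 13.7% of unlisted summits, and in 11.4% of the 132 strongest members and 21.2% of the 132 weakest. TCAGTT, the core of the initiator, was in 4.93% of members and 6.45% of unlisted summits, and CACGTG in 0.949% and 0.879%.

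The genes at the members were described through 17 lists. Over all genes, 1073 of the 6173 that flank an annotated diverging pair flanked a member (17.4%), and the lists below count only genes that flank such a pair. Together 126 list genes flanked a member. Genes from 1 list on both sides of the same peak occurred once, for Pex16 and Pex14. Genes that share a start are each counted. In the oxidative phosphorylation list these include sloth1 and sloth2, named after their values were seen, at 1 start beside cm (138).

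Among genes of the translation machinery the shares ran from far above to below the 17.4%. Cytosolic ribosomal proteins flanked a member in 26 of 55 (47.3%, 33.7 to 61.2%). The strongest were RpL7, which shares its peak with Ripalpha (366, with 195 in replicate 1 and 169 in replicate 2), RpL34b with CG8132 (319, with 145 and 165) and RpS27 with Nup37, a nuclear pore protein (260, with 108 and 152). The summit was 63, 118 and 36 bp from the start of the ribosomal gene in this order. Mitochondrial ribosomal proteins, which include the strong peaks of mRpS10, mRpS23 and mRpL23 above, flanked a member in 13 of 57 (22.8%, with an interval of 12.7 to 35.8% that includes 17.4%). Aminoacyl-tRNA synthetases, which charge tRNAs with amino acids, did so in 8 of 23 (34.8%, 16.4 to 57.3%), led by GluProRS with AP-1sigma (196), SerRS with CG17260 (188) and ThrRS with Patsas (110). Translation initiation factors did so in 2 of 22 (9.09%, 1.12 to 29.2%), eIF1, with RpL28 on the other side (85.1), and eIF2gamma, with Set (51.3). The intervals of the synthetases and of the initiation factors also include 17.4%. Genes for tRNAs did so in 6 of 80 (7.5%), and the strongest was tRNA:Tyr-GTA-1-8 beside CG8036 (269), followed by tRNA:Asp-GTC-1-4 beside Sema1a (105) and tRNA:Trp-CCA-2-2 beside CG30122 (66.4). The 17.4% is no like measure for tRNA genes, since 1045 of the 1073 genes behind it were protein-coding. Counted by pair, 4.14% of pairs of a coding and a non-coding gene held a member, against 16.0% of coding pairs.

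Energy metabolism, organelles and membrane traffic were represented as well. Oxidative phosphorylation genes flanked a member in 16 of 53 (30.2%, 18.3 to 44.3%), with CIA30 first, then ND-ASHI, a complex I subunit, which shares its peak with the citric acid cycle enzyme gene Fum1 (345), and ND-MWFE with TppII (138). Peroxisome genes did so in 6 of 12 (50%, 21.1 to 78.9%), led by Pex10 with CG12099 (166), Pex6 with the TFIID subunit gene Taf5 (141) and Pex11c with wda (119). Genes of vesicle sorting and ESCRT did so in 6 of 21 (28.6%, with an interval of 11.3 to 52.2% that includes 17.4%). There CHMP2B was followed by Vps33B with the protease gene Fur1 (206) and Vps50 with PIG-A (126). Of 5 genes of mitochondrial protein import, Tom7 flanked a member (117).

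Genes for transcription and chromatin proteins included several that bind promoters themselves. Among insulator and architectural proteins 7 of 14 flanked a member (50%, 23.0 to 77.0%), led by Chro, then Cp190, an insulator cofactor, with CG4338 (271, with 153 in replicate 1 and 117 in replicate 2) and Dref, the protein that binds TATCGATA, with RpL13 (118, with 58.6 and 59.5). Polycomb and trithorax group genes did so in 7 of 17 (41.2%, 18.4 to 67.1%), led by brm, the ATPase of the fly SWI/SNF complexes, with Arl1 (368, with 160 and 205), E(z), the histone H3 lysine 27 methyltransferase, with Cnep1r2 (193, with 89.7 and 109) and skd, a Mediator kinase module subunit, with Pdss2 (93.2). RNA polymerase, TFIID and Mediator genes did so in 13 of 51 (25.5%, with an interval of 14.3 to 39.6% that includes 17.4%). The strongest were Polr2B, a core subunit of RNA polymerase II, beside 140up (240), MED27 beside elm (221) and MED30 beside Rev1 (179).

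Further lists were close to the 17.4% of all such genes or rested on few genes. Proteasome genes flanked a member in 4 of 26 (15.4%), led by Rpn3 (122), Rpn13 (76.9) and Rpt5 (72.7). Chaperones did so in 3 of 17 (17.6%), Hsc70-5 (97.3), Hsc70-4 (91.6) and CCT8 (67.1). Genes listed under cell cycle and DNA replication did so in 5 of 30 (16.7%). RnrS, the small subunit of ribonucleotide reductase (195), Cdk12, listed by its symbol only (121), and PCNA2 (97.8) led these. Of 8 snoRNA genes, snoRNA:Me18S-C1096 (80.1) and snoRNA:Me18S-A1576 (53.8) flanked a member. Of 52 regulators of segmentation, dorsoventral patterning and neural fate, 8 flanked an annotated diverging pair, and 1 of these, the Notch target E(spl)m3-HLH, flanked a member (108). Neighbouring genes share a peak, and the lists were read against the percentage over all genes without a test.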

How the data were processed

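ChIP-seq of Wdn-eGFP was measured in 2 biological replicates of whole embryos, with chromatin sonicated to 200 to 800 per the labels. The authors deposited IDR-thresholded and ranked peak lists on dm6 (per the file headers), 1 set from both replicates and 1 from each alone. Signal is the value of the authors' peak caller, deposited per peak. In the deposited ranked lists a further column is -log10 of the global IDR, with 5 as its highest value. The aligner, the peak caller and the file that turned ranked into thresholded lists are not given in the sources used here. Every listed peak had a global IDR of at most 0.01.

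Summits were set against 23584 starts of 18164 genes (Ensembl release 115, transposons left out, coordinates of the same assembly) with pandas 2.3.3 and numpy 2.4.6. A replicate's value at a peak is that of its strongest ranked peak overlapping by at least 1 base. Shares carry 95% exact binomial (Clopper-Pearson) intervals from scipy 1.17.1. No p-value is given, since peaks are not replicates and there is 1 group. The code was tested on simulated starts and peaks. Words were searched on both strands: 7 are textbook motifs and 7 come from an earlier analysis of these peaks. Gene lists were made by symbol. Genes are named if they flank the 12 strongest members, the 2 nearest to either side of the 500 bp limit, the extremes of interval and of replicate ratio, or are the up to 3 strongest of a list, with their partners; others are said to be chosen after their values were seen. The members, lists, words and rules were chosen with earlier results of these data known. Alternatives covered other lists, limits, windows and start sets, and "nearest start within 200 bp" and "no further start between" were added after seeing the data.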

Additional observations from a re-analysis of the deposited data

How the results depend on the processing

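The listed share stayed higher between diverging starts than upstream of starts in one direction under each of the 10 alternatives tried for it. The number of members was 345 at an IDR of at most 0.001, 340 with starts within 250 bp, and 340 to 393 in the lists of single replicates. Their share of the list was 20.4% at the stricter IDR, 10.5% with 250 bp, 21.0% with 1000 bp and 17.0 to 22.0% in single replicates. The listed share was 22.2% at the stricter IDR, 43.1% with 250 bp (14.5% in one direction), 23.1% with 1000 bp (6.01% in one direction) and 26.4 to 31.4% in single replicates. Pairs with a member were 8.87% at the stricter IDR, 8.99% with 250 bp, 15.9% with 1000 bp, 16.0% with protein-coding starts, 16.1% among pairs at most 500 bp apart and 8.64 to 10.2% in single replicates.

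The median signal was 97.7 in the conservative list, 125 at the stricter IDR, 99.3 with 250 bp, 87.9 with 1000 bp and 58.7 to 60.8 in single replicates, whose signal is on their own scale. The share in both replicates' lists was 57.7% for the conservative list and 79.1% at the stricter IDR, and it has no value for a single replicate's list. The central part of the interval held 47.6% in the conservative list, 50.7% at the stricter IDR, 60.4% with 250 bp, 39.2% with 1000 bp, 46.5% of intervals of at least 120 bp and 48.7 to 49.1% in single replicates. Both genes were protein-coding in 97.6% with 250 bp and 91.6% with 1000 bp. A and T content was 68.7% at the stricter IDR, 68.6% with 250 bp, 66.1% with 1000 bp, 65.4% within 100 bp of the summit and 67.9 to 68.5% in single replicates. TTAAAAAA was in 8.70% at the stricter IDR, 9.12% with 250 bp, 7.04% with 1000 bp, 13.7% within 100 bp and 8.24 to 8.91% in single replicates. List genes at a member were 77 with 250 bp. Another 43 values of these results moved by less than the spread between the replicates or, for counts, by at most 1.5 times. Of the shares of the other 13 words, 56 moved by more than that spread and 61 did not; within 100 bp TATCGATA was in 11.0%, CAGCTG in 14.0% and TATAAA in 41.6% of members. Windows, stricter IDR and wider searches change these shares by their own construction, by keeping fewer or more summits or bases; other causes were not tested.

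No paired analysis was possible because there is a single group. With 2 replicates, no control library and no read counts, neither the enrichment at a peak nor the depth behind it was checked, and an unlisted summit is not shown to be unbound.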

Other observations

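A further 10 ranked summits between diverging starts had a global IDR of at most 0.01 but were not in the list, and they were not counted as members. The strongest lay between eIF4EHP, a cap-binding translational repressor, and CG18428, with a signal of 458, and it overlapped a peak of each replicate's own list (218 in replicate 1 and 236 in replicate 2). The next were those of Sirt6 and pont, an ATPase of chromatin-remodelling complexes (210, with 93.0 and 118), and of Sin3A, a corepressor, and lncRNA:CR30055 (124, with 53.1 and 76.9). They overlapped no peak of either replicate's own list. These 3 were named after their values were seen.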
